A study of Mus musculus with 18 samples.

Results

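Immediate early response genes were examined in 18 mouse B16F10 melanomas as 10 of the 41079 genes with a deposited expression value. They were taken by name, as rows of the expression table. The AP-1 subunits Fos, Fosb, Jun and Junb, the zinc finger factors Egr1 and Egr2, the stress-induced factor Atf3, the orphan nuclear receptor Nr4a1, the nuclear regulator Ier2 and the phosphatase Dusp1 make up the set. All 10 were expressed in these tumors, with means of 1.55 FPKM (Egr2) to 88.9 FPKM (Fos), where FPKM is fragments per kilobase of gene length for every 1000000 fragments that fell in genes. All but Egr2 and Nr4a1 varied widely from tumor to tumor within a treatment. No member passed an adjusted p of 0.05 in limma with Benjamini-Hochberg adjustment in any comparison of treatments.

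Immediate early genes are those a cell transcribes first after a growth factor, cytokine, stress or injury signal, from factors already present and without new protein synthesis. Kinases of the MAPK family, acting through serum response factor and CREB at short promoter elements, drive many of them. Their transcripts are short-lived, so their level in a tissue piece follows recent signalling and is cut back by their own products, among them Dusp1, which removes the activating phosphates from MAPKs. FOS and JUN family proteins pair to form AP-1, which acts on the later genes of the response.

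The tumors grew from B16F10 cells, a C57BL/6 mouse melanoma line, injected under the skin of the right flank in C57BL/6 females whose ages the sources used here do not give. From day 6, at about 50 mm³, the tumors were injected every 2 days with PBS, with the ribozyme PS473 alone (Free PS473), with PS473 carried by cationic polymers (PS473@CPs), with a manganese metal-organic framework alone (NKMOF-101-[Mn]), with that framework loaded with the catalytically inactive ribozyme M5 (M5@NKMOF-101-[Mn]) or with PS473 (PS473@NKMOF-101-[Mn]). PS473 is a pistol ribozyme, a small self-folding RNA that cuts another RNA, and was designed against the messenger RNA of PD-L1. RNA was taken from 3 tumors per group, 48 h after the last injection, well after the usual rise and decay of an immediate early response, and polymers alone are not among the groups. The titles of the last group name NKMOF-102-[Mn], while its treatment is recorded as PS473@NKMOF-101-[Mn], the name used here.

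Depth as recovered from the steps between low values was 17212000 to 28401000 fragments per tumor. The 10 genes rested on 211 (Egr1) to 14553 (Fos) fragments in a tumor, so that counting error was small against the spread between tumors. Melanocyte markers were high in every tumor, with Pmel at 893 to 1836 FPKM and Dct, an enzyme of pigment synthesis, at 2087 to 3416 FPKM, as the labelled cell type has them. Tumor pieces differed in other tissue. The keratinocyte marker score, the mean log2(FPKM + 1) of 19 skin genes, lay between 0.30 and 0.35 in 8 tumors and between 0.90 and 5.33 in the other 10, and its ranges overlapped among all 6 groups. Krt5, a keratin of the basal epidermis, was at 0 in 6 tumors and reached 837 FPKM, and Krt1 and Krt14 were at 0 in 7 and 5 tumors. Of 20 listed genes, 19 were in the table and 16 had a mean of at least 1 FPKM. The score ran from 0.35 to 5.00 with PBS, 0.30 to 2.50 with Free PS473, 0.32 to 5.33 with PS473@CPs, 0.31 to 4.74 with the empty framework, 0.31 to 3.37 with M5@NKMOF-101-[Mn] and 0.32 to 3.32 with PS473@NKMOF-101-[Mn]. In such bulk pieces, fewer cells of a type and less RNA per cell cannot be told apart.

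The upstream sequence of these genes is shown for the elements that are known to drive such genes. RefSeq promoter windows of mouse build GRCm38.p6, from 250 bases before to 50 bases after each annotated start, were matched for 8 of the 10 genes. Ier2 and Egr1 had no entry. The build of the expression table, GRCm39 by the submitters' processing notes, differs, so these coordinates serve the sequences only. The 150 bases before the start are shown for Fos, Dusp1, Egr2 and Nr4a1, which hold the different elements found. Capitals mark the CArG box, the serum response factor element, in Egr2, the cyclic AMP response element TGACGTCA or its part TGACGT on either strand in Fos, Dusp1 and Egr2, and the EGR element GCGNGGGCG, read here from the opposite strand, in Nr4a1. The Fos stretch is chr12:85473740-85473889 on the forward strand, that of Dusp1 chr17:26508473-26508622 on the reverse strand, that of Egr2 chr10:67537719-67537868 on the forward strand and that of Nr4a1 chr15:101266696-101266845 on the forward strand.
Fos: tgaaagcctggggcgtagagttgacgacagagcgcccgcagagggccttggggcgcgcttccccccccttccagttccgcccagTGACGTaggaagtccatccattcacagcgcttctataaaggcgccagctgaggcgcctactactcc
Dusp1: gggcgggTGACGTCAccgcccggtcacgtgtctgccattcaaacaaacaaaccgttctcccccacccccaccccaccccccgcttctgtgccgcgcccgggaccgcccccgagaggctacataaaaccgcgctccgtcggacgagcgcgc
Egr2: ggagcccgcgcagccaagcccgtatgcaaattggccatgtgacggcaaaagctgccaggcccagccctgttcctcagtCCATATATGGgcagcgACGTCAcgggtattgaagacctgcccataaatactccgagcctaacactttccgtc
Nr4a1: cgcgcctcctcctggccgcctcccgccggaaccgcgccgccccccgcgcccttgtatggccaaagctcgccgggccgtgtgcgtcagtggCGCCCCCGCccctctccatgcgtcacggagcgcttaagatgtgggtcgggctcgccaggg

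The part TGACGT or its reverse complement began 66 bases before the start in Fos, 191 and 143 bases before it in Dusp1, the latter within the full element, 56 bases before it at the Egr2 start shown and 8 bases before it in Atf3. It occurred in 7.51% of the 32851 windows of the genome searched on both strands. The full TGACGTCA occurred in 1.79% of windows and in Dusp1 among the 8 genes. A CArG box lay 72 bases before the Egr2 start shown and was in the windows of 4 of its 5 annotated starts, against 1.63% of all windows. The EGR element GCGNGGGCG, the site of the proteins made by Egr1 and Egr2, was found 60 bases before the start of Nr4a1 and 50 bases before that of Fosb, and in 5.55% of all windows. The AP-1 element TGANTCA, with a share of 7.81% of all windows, was in none of the 8 genes' windows. None of these elements was in the Jun and Junb windows, which says nothing of sites elsewhere.

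Fos, the founding subunit of AP-1, was the most abundant of the set per length. It stood at 114, 140 and 90.5 FPKM in the PBS tumors, at 39.9, 68.7 and 73.3 FPKM with Free PS473, and at 89.4, 281 and 90.1 FPKM with PS473@CPs. With the framework it stood at 60.2, 40.4 and 108 FPKM when empty, at 73.1, 127 and 38.2 FPKM with M5, and at 69.2, 39.8 and 56.8 FPKM with PS473. All Free PS473 and all PS473@NKMOF-101-[Mn] tumors were below all PBS tumors, while the other groups overlapped PBS. Group means of Fos ran from 154 ± 111 FPKM (SD, n = 3) with PS473@CPs, through 115 ± 24.9 FPKM with PBS, to 55.3 ± 14.8 FPKM with PS473@NKMOF-101-[Mn].

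Jun, the usual partner of FOS, ranked the tumors much as Fos did. Its values were 85.1, 92.9 and 68.7 FPKM with PBS, 36.8, 50.6 and 75.01 FPKM with Free PS473, and 80.2, 170 and 60.7 FPKM with PS473@CPs. In the framework groups they were 51.9, 36.7 and 69.0 FPKM for the empty framework, 48.2, 74.0 and 28.1 FPKM for M5, and 55.4, 33.7 and 35.3 FPKM for PS473. The PS473@NKMOF-101-[Mn] tumors lay below every PBS and every PS473@CPs tumor. Fosb, which codes for a FOS relative, had a mean of 10.2 FPKM, against 64.0 FPKM for Jun. It read 23.3, 13.0 and 9.48 FPKM with PBS, 3.65, 9.27 and 14.6 FPKM with Free PS473, and 14.8, 27.5 and 8.20 FPKM with PS473@CPs. With the framework it read 5.29, 3.83 and 12.8 FPKM when empty, 6.75, 11.9 and 2.26 FPKM with M5, and 9.96, 4.50 and 2.90 FPKM with PS473. All groups of Fosb overlapped PBS. Its lowest tumor, 2.26 FPKM in M5@NKMOF-101-[Mn], and its highest, in PS473@CPs, differed 12.2-fold.

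Junb codes for the AP-1 subunit that often restrains JUN. It was measured at 32.1, 89.9 and 51.3 FPKM with PBS, 19.0, 14.1 and 73.7 FPKM with Free PS473, and 32.3, 143 and 36.8 FPKM with PS473@CPs. Its values were 48.5, 29.9 and 34.9 FPKM with the empty framework, 24.2, 43.7 and 30.0 FPKM with M5@NKMOF-101-[Mn], and 23.2, 29.4 and 23.5 FPKM with PS473@NKMOF-101-[Mn]. The last group was the narrowest for Junb and lay below PBS, PS473@CPs and the empty framework, whereas the Free PS473 tumors held both the lowest value of all and the third highest.

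Egr1, the zinc finger factor most often used as a reporter of MAPK activity, had the widest range of the set, 21.0-fold. PBS tumors had 11.6, 36.3 and 23.2 FPKM, Free PS473 tumors 3.77, 2.68 and 23.3 FPKM, and PS473@CPs tumors 6.46, 56.4 and 10.8 FPKM. The empty framework had 21.3, 8.68 and 8.61 FPKM, M5@NKMOF-101-[Mn] 4.8, 8.63 and 5.58 FPKM, and PS473@NKMOF-101-[Mn] 5.54, 9.88 and 4.10 FPKM. Both loaded framework groups lay below all PBS tumors, and both overlapped Free PS473 and PS473@CPs. Egr2, its paralog, known for myelination and for lymphocyte tolerance, stayed between 1.17 and 2.91 FPKM over a gene length of 11997 bases, and all 6 groups overlapped. Its highest value was again in PS473@CPs tumor 2.

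Dusp1, the MAPK phosphatase, followed Egr1 and Junb. It had 17.6, 49.9 and 49.3 FPKM with PBS, 9.09, 10.4 and 29.0 FPKM with Free PS473, and 16.4, 118 and 22.0 FPKM with PS473@CPs. The framework groups had 35.4, 19.6 and 25.3 FPKM when empty, 11.8, 23.1 and 12.6 FPKM with M5, and 11.5, 17.0 and 12.5 FPKM with PS473. PS473 in the framework was again below all PBS tumors and below all tumors of the empty framework.

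Atf3, a factor of the ATF/CREB family induced by many stresses, was the steadiest gene within PS473@NKMOF-101-[Mn], at 7.78, 7.88 and 7.75 FPKM, a mean of 7.80 ± 0.0719 FPKM (SD, n = 3). It read 13.6, 16.5 and 14.9 FPKM with PBS, 9.15, 21.3 and 11.8 FPKM with PS473@CPs, 14.5, 9.18 and 15.9 FPKM with the empty framework, and 9.23, 15.5 and 11.2 FPKM with M5@NKMOF-101-[Mn]. All of these lay above all PS473@NKMOF-101-[Mn] tumors. Free PS473 did not separate, with 9.13, 5.53 and 18.6 FPKM.

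Ier2, a small nuclear protein gene of the early response, ranged from 23.3 to 71.8 FPKM. Its PBS tumors had 40.2, 51.2 and 33.7 FPKM, its PS473@CPs tumors 40.1, 71.8 and 32.5 FPKM and its PS473@NKMOF-101-[Mn] tumors 29.0, 30.7 and 26.9 FPKM, the last below both of the others. Free PS473 (29.7 to 39.5 FPKM), the empty framework (30.2 to 41.9 FPKM) and M5@NKMOF-101-[Mn] (23.3 to 42.2 FPKM) overlapped all groups. Nr4a1, the orphan receptor that follows antigen receptor and stress signals, was the exception in range. It stayed between 15.2 and 24.0 FPKM, a 1.58-fold range over 18 tumors, with group means of 18.5 to 21.3 FPKM, and all groups overlapped.

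**Figure D1:**
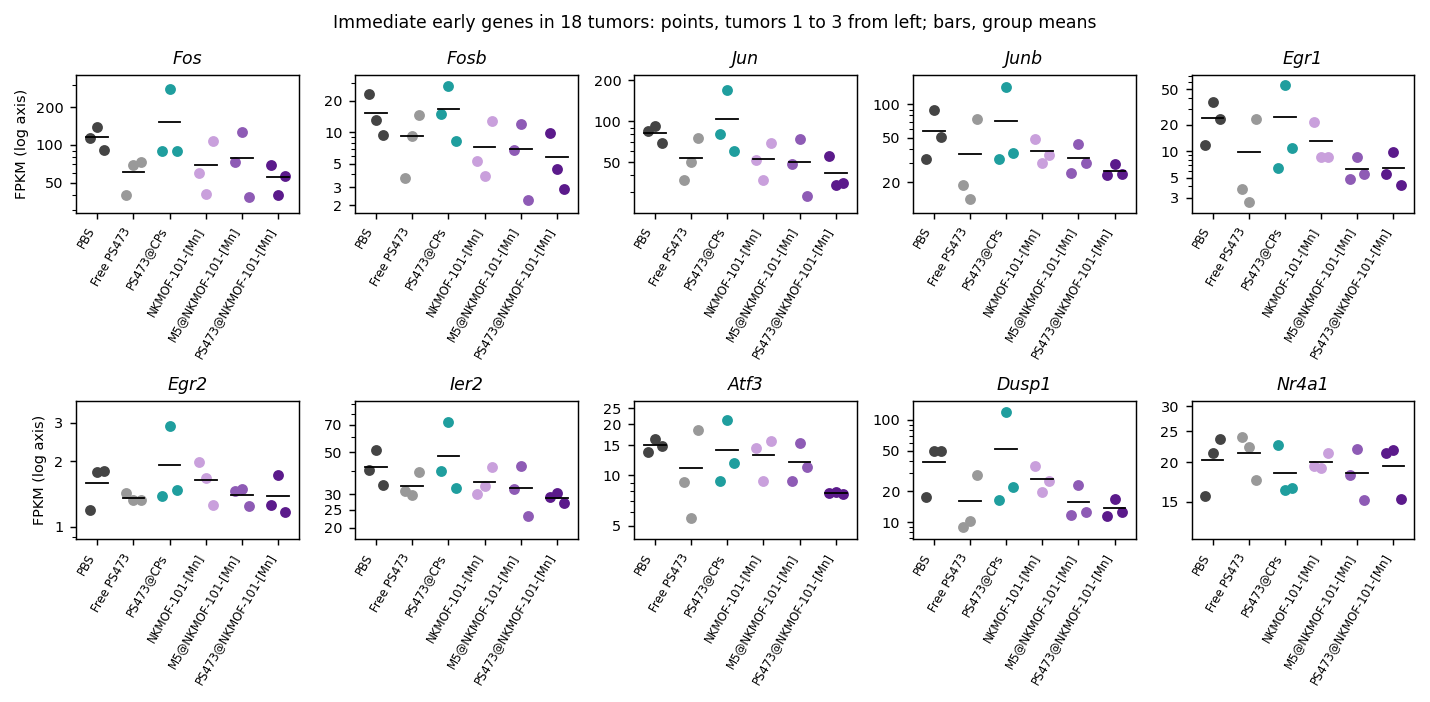
Expression of the 10 immediate early genes in FPKM on log axes, 1 panel per gene, with 3 tumors as points and the mean as a bar for each of 6 groups. Tumor 2 of PS473@CPs is the highest point in every panel but that of Nr4a1, and the PS473@NKMOF-101-[Mn] points cluster low in Atf3 and Junb.

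A single tumor set the top of most of these scales. PS473@CPs tumor 2 was the highest of 18 for 9 of the 10 genes, Nr4a1 being the exception, while 7.58% of the 12357 genes tested, those whose mean reached 1 FPKM, were highest in that tumor. It also had the highest keratinocyte score, 5.33. The lowest values were more spread: 5 genes were lowest in M5@NKMOF-101-[Mn] tumor 3, 3 in Free PS473 tumor 2 and 1 each in Free PS473 tumor 1 and PS473@NKMOF-101-[Mn] tumor 3. By group means of FPKM, 8 genes were highest with PS473@CPs, 7 genes were lowest with PS473@NKMOF-101-[Mn], and no neighbours in the order of any gene were told apart in the 9 comparisons of groups that were run. The high place of PS473@CPs rested on its tumor 2. Without that tumor, all 10 members had lower log2(FPKM + 1) means with PS473@CPs than with PBS. With it, Egr1 was already lower on that scale, at 4.10 against 4.49. The SD within groups on the log2(FPKM + 1) scale ran from 0.216 for Egr2 to 1.01 for Egr1, with a median of 0.595, against a median of 0.183 over all genes tested.

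The genes did not vary independently. Over the 18 tumors, Pearson's r of log2(FPKM + 1) was 0.82 to 0.95 between Fos, Fosb, Jun and Ier2, and Spearman's rho was 0.79 to 0.95. It was 0.82 to 0.96 between Junb, Egr1, Dusp1 and Atf3, with rho of 0.80 to 0.96. Pairs across these 2 sets had lower r, 0.53 to 0.78. The sets were drawn from these values and are a description, with no test. After each group's mean was subtracted, r was 0.73 to 0.95 in the first set, 0.80 to 0.97 in the second and 0.33 to 0.68 across them. Without PS473@CPs tumor 2, r was 0.78 to 0.94, 0.79 to 0.94 and 0.38 to 0.62 in the same order. The closest pair was Junb with Egr1 (r = 0.96, rho = 0.90), followed by Fos with Jun (r = 0.95, rho = 0.92). Egr2 was nearest to Dusp1 (r = 0.81, rho = 0.61), although without the 2 tumors farthest from the median of Egr2 the r was 0.58. Nr4a1 had r of -0.20 to 0.05 with the other 9 genes. These values share libraries and tumor pieces, and the 45 pairs share genes.

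**Figure D2:**
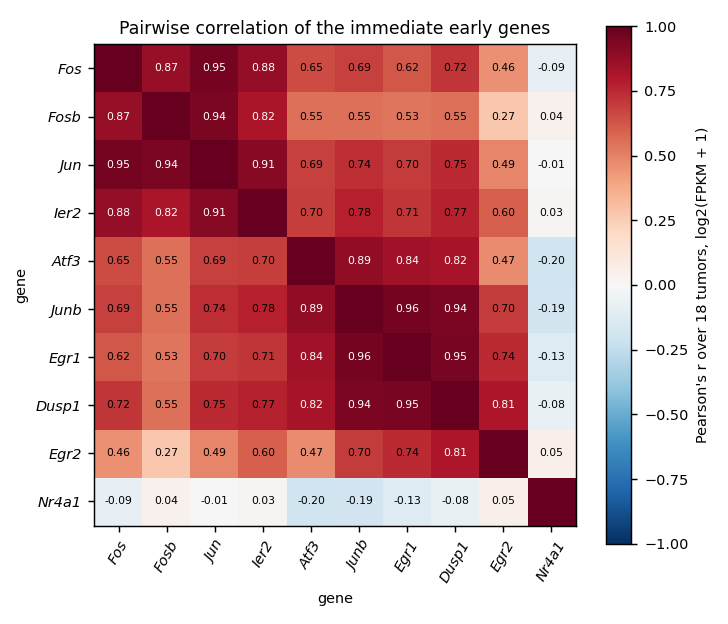
Pearson's r of log2(FPKM + 1) over 18 tumors for each pair of the 10 genes, with red for positive and blue for negative values. Fos, Fosb, Jun and Ier2 form a block at 0.82 to 0.95 and Atf3, Junb, Egr1 and Dusp1 a block at 0.82 to 0.96, while the row of Nr4a1 is near 0.

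The same genes were set against the other tissue in each tumor piece. Egr1 (r = 0.81, permutation p = 9.0e-05, rho = 0.72, permutation p = 0.00109), Dusp1 (r = 0.78, permutation p = 0.00013, rho = 0.74, permutation p = 0.00069) and Junb (r = 0.76, permutation p = 0.00017, rho = 0.72, permutation p = 0.00106) were higher in tumors with a higher keratinocyte score. Egr2 had r = 0.71 (permutation p = 0.00046) but rho = 0.41 (permutation p = 0.0898), and Atf3 had r = 0.59 (permutation p = 0.0101) and rho = 0.58 (permutation p = 0.0121). These p values are two-sided, from 100000 resamples over 18 tumors, for 10 relations computed. Without the 2 tumors farthest from the median score, r was 0.67 for Egr1, 0.64 for Dusp1, 0.57 for Junb and 0.58 for Egr2, and the relation of Atf3 no longer held (r = 0.42, permutation p = 0.103). For Fos, Jun, Ier2, Fosb and Nr4a1, r lay between -0.12 and 0.34, with permutation p of 0.163 to 0.659. A split that was not planned beforehand took the 10 tumors with a score above 0.5, PS473@CPs tumor 2 among them. There Egr2 had r = 0.82 (permutation p = 0.00201), Egr1 0.79 (permutation p = 0.00749), Dusp1 0.74 (permutation p = 0.0140) and Junb 0.71 (permutation p = 0.0220). Atf3 had r = 0.51 (permutation p = 0.138) and Fos 0.40 (permutation p = 0.254). Whether the relations of any of these genes differ from each other was not tested.

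In a limma fit of each gene's slope on the score with a mean for each group, Egr1 increased by 0.39 ± 0.081 (SE) on the log2 scale per unit of score (adjusted p = 0.00854), Dusp1 by 0.32 ± 0.070 (adjusted p = 0.0129) and Junb by 0.28 ± 0.071 (adjusted p = 0.0281), with Benjamini-Hochberg adjustment over all 12357 genes. The other 7 members did not pass, Egr2 being nearest (adjusted p = 0.0903, and 0.026 without M5@NKMOF-101-[Mn] tumor 3), and 5.82% of all genes tested rose with the score by this test. None of the 3 passed without PS473@CPs tumor 2 (adjusted p of 0.0708 to 0.171), though their slopes stayed between 0.22 and 0.32. Without PBS tumor 1 or without PS473@CPs tumor 1, Dusp1 (adjusted p of 0.0545 and 0.0531) and Junb (0.0707 and 0.0873) missed the threshold, and without PBS tumor 2 Junb did (0.0728). Other marker scores moved with these genes too. Leukocyte, fibroblast and endothelial scores were correlated with Egr1 (r = 0.86, 0.90 and 0.79), Junb (r = 0.87, 0.85 and 0.78) and Dusp1 (r = 0.83, 0.86 and 0.78). Atf3 had r = 0.83, 0.67 and 0.65, Egr2 0.58, 0.77 and 0.67, and Fos 0.40, 0.36 and 0.37. Ier2, Jun and Fosb had r of 0.20 to 0.51 with these scores, and Nr4a1 of -0.18 to -0.11. The melanocyte score had a negative r with all 10 members, from -0.65 for Ier2 to -0.16 for Nr4a1. Adipocyte scores gave r of -0.16 to 0.57 and skeletal muscle scores -0.40 to 0.26. The part of any of these tissues in the members' levels was not tested.

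**Figure D3:**
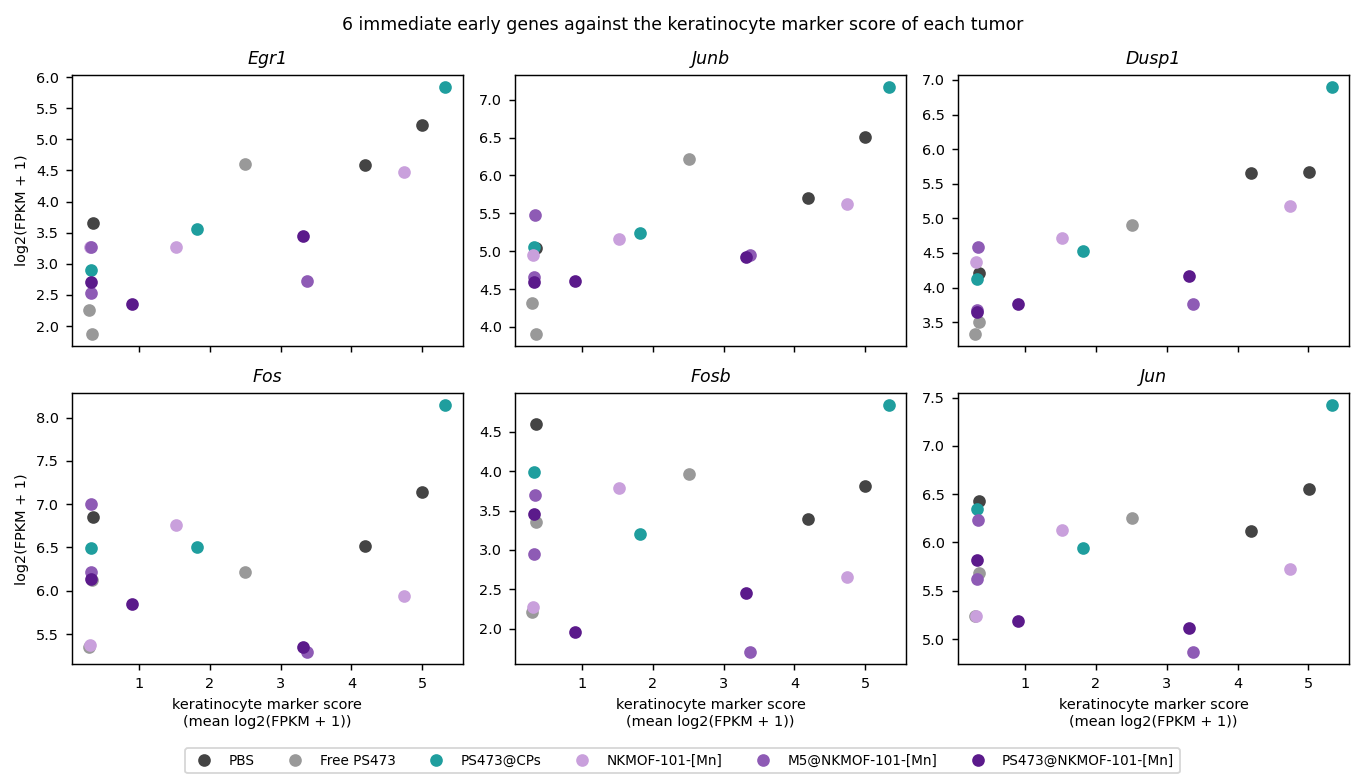
Log2(FPKM + 1) of 6 immediate early genes against the keratinocyte marker score of the same tumor, the mean log2(FPKM + 1) of 19 skin genes, with 18 tumors colored by group. Egr1, Junb and Dusp1 (top) are higher at high scores with r of 0.76 to 0.81, whereas Fos, Fosb and Jun (bottom) have r of 0.11 to 0.32.

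The design asks whether the framework carrying the active ribozyme left a response that PBS, polymer delivery, the free ribozyme, the empty framework or the inactive ribozyme did not. For each comparison, 1 limma fit of log2(FPKM + 1) over all 18 tumors was used, and a call needed a fold change over 2 at an adjusted p below 0.05. In each of the 9 comparisons of groups, in the comparison of the 9 framework tumors with the 9 others, and in the test across all 6 groups, 0 of 10 members and 0% of the 12357 genes passed. All comparisons with PBS share the 3 PBS tumors, and those with PS473@NKMOF-101-[Mn] share its 3 tumors.

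Against PBS, all 10 members had lower means with PS473@NKMOF-101-[Mn], as had 53.6% of all genes tested. The members' median log2 fold change was -1.02, against -0.014 over all genes tested. Egr1 differed by -1.66 ± 0.75 (SE), Dusp1 by -1.32 ± 0.62, Fosb by -1.31 ± 0.61, Fos by -1.06 ± 0.49, Junb by -1.04 ± 0.59, Jun by -0.996 ± 0.40, Atf3 by -0.86 ± 0.34 and Ier2 by -0.50 ± 0.26, each with adjusted p = 0.993 in limma after Benjamini-Hochberg adjustment. Egr2 and Nr4a1 differed by -0.12 ± 0.18 and -0.05 ± 0.19. For 7 of the 10, namely Fos, Jun, Junb, Egr1, Ier2, Atf3 and Dusp1, all PS473@NKMOF-101-[Mn] tumors were below all PBS tumors, as were those of 1.92% of all genes. At an unadjusted p under 0.05, Fos, Fosb, Jun, Egr1 and Atf3 were lower, 5 of 10 against 2.10% of all genes in either direction. That count ran from 0 (without PBS tumor 2 or PS473@NKMOF-101-[Mn] tumor 3) to 7 (without PS473@CPs tumor 2) with 1 tumor left out. In those fits 164, 242 and 389 of all 12357 genes had such a p, in the same order. The member count was 8 with these groups fitted alone, where 164 of all genes had one. With the keratinocyte score in the fit it was 1 (Jun), where 269 of all genes had one. The keratinocyte scores of PBS were 0.35, 5.00 and 4.19 and those of PS473@NKMOF-101-[Mn] 0.32, 3.32 and 0.90. The leukocyte score ran from 1.32 to 2.88 with PBS and from 1.21 to 2.00 with PS473@NKMOF-101-[Mn], and the fibroblast score from 1.89 to 4.69 and from 2.20 to 3.55. Their part in the difference was not tested.

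Against PS473@CPs, 9 of 10 members had lower means with PS473@NKMOF-101-[Mn], against 49.7% of all genes tested. The members' median log2 fold change was -1.15, against 0.001 over all genes. Jun differed by -1.20 ± 0.40 (SE), Fos by -1.27 ± 0.49, Fosb by -1.38 ± 0.61 and Ier2 by -0.64 ± 0.26 (adjusted p = 0.996 for each, limma with Benjamini-Hochberg adjustment), and these 4 had an unadjusted p under 0.05, against 2.29% of all genes. Fos, Jun, Junb, Ier2 and Atf3 did not overlap between the groups, against 2.23% of all genes in that direction. Without PS473@CPs tumor 2 the median was -0.42, with Jun at -0.77 and Fos at -0.73. In that fit 0 members and 87 of all 12357 genes had an unadjusted p under 0.05. The number of members was 7 without PS473@CPs tumor 1 or Free PS473 tumor 3, where 433 and 341 of all genes had such a p. Leaving out any other tumor moved this median less. The keratinocyte scores of the PS473@CPs tumors were 0.32, 5.33 and 1.82. With the score in the fit, 5 members and 292 of all 12357 genes had an unadjusted p under 0.05. The part of other tissue in the difference was not tested further.

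Against the other framework groups and the free ribozyme, differences were smaller. The median log2 fold change of the members was -0.30 for the empty framework, -0.16 for M5@NKMOF-101-[Mn] and -0.12 for the free ribozyme as the other group. Over all genes tested it was -0.038, -0.008 and -0.042. Junb, Atf3 and Dusp1 were lower in all PS473@NKMOF-101-[Mn] tumors than in all NKMOF-101-[Mn] tumors, 3 of 10 against 5.50% of all genes, and Atf3 was lower than in all M5@NKMOF-101-[Mn] tumors, 1 of 10 against 2.16%. At an unadjusted p under 0.05 there were 0 members in each of these, against 2.30%, 0.591% and 4.98% of all genes, in the same order as the medians. With 1 tumor left out there was at most 1, against the empty framework, in fits where 297 to 389 of all genes had such a p. The active and the inactive ribozyme in the framework were thus not told apart on these genes with 3 tumors each, which does not show that they act alike.

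The other treatments were each set against PBS. The median was -0.70 for Free PS473, -0.70 for M5@NKMOF-101-[Mn], -0.46 for the empty framework and 0.07 for PS473@CPs. Over all genes tested it was 0.028, -0.007, 0.026 and -0.008 in the same order. With an unadjusted p under 0.05 there was 1 member, Egr1 with M5@NKMOF-101-[Mn], where 1.51% of all genes had one, and there were 0 with Free PS473 (1.81% of genes), PS473@CPs (2.09%) and the empty framework (1.46%). With 1 tumor left out the number reached 4 for Free PS473 (without its tumor 3), 2 for the empty framework (without its tumor 3) and 3 for M5@NKMOF-101-[Mn] (without its tumor 2 or PS473@CPs tumor 2), and stayed at 0 for PS473@CPs. Of all 12357 genes, 606, 206, 300 and 289 had such a p in these fits, in the same order. With no tumor left out, 224 had one for Free PS473, 181 for the empty framework and 187 for M5@NKMOF-101-[Mn]. Fos with Free PS473 and Egr1 with M5@NKMOF-101-[Mn] did not overlap PBS, against 1.54% and 3.36% of all genes. The medians of Free PS473 and M5@NKMOF-101-[Mn] against PBS were both -0.70, and whether these 2 groups differ from each other was not tested. With all 9 framework tumors against the 9 others, the median was -0.51, against -0.006 over all genes tested. All 10 members had lower means, as had 52.4% of all genes. Fosb (-0.94 ± 0.35) and Jun (-0.67 ± 0.23) had an unadjusted p under 0.05, against 4.56% of all genes. For both, adjusted p was 0.9 in limma with Benjamini-Hochberg adjustment. With 1 tumor left out 2 to 4 members had such an unadjusted p, as had 389 to 1035 of all genes. In the test across the 6 groups, 0 members had an unadjusted p under 0.05, against 1.99% of genes, and 4 did without Free PS473 tumor 3. Without that tumor 395 of all genes had one, against 246 with no tumor left out.

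**Figure D4:**
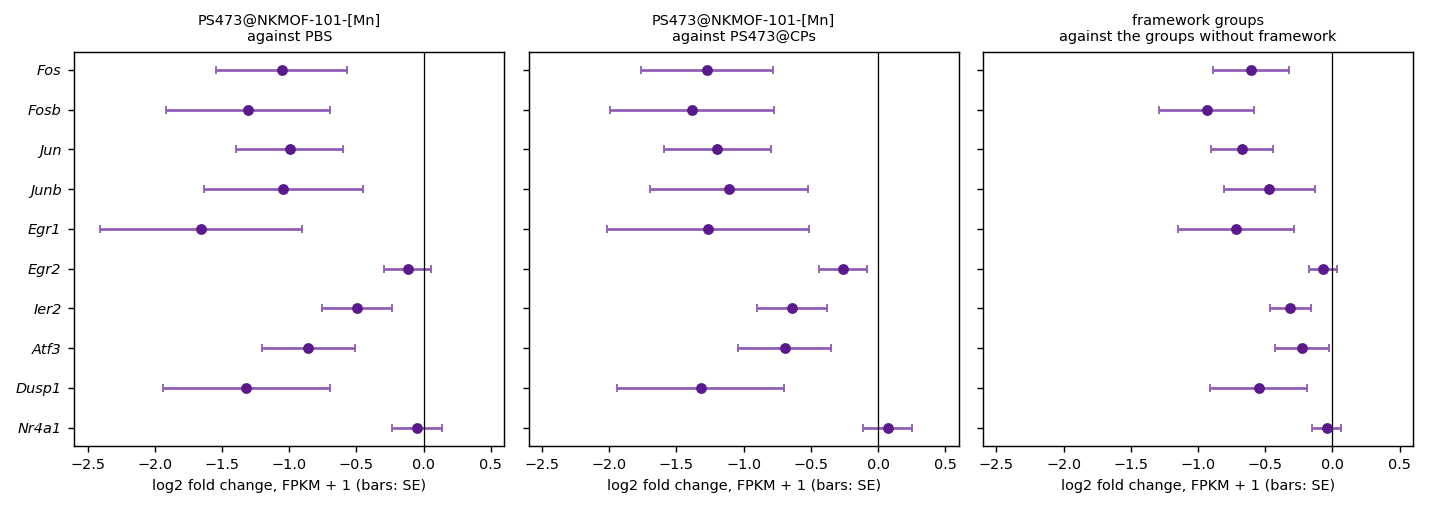
Log2 fold changes of the 10 genes with their standard errors in 3 comparisons, computed on log2(FPKM + 1). Points lie left of 0 for 10 genes against PBS, for 9 against PS473@CPs and for 10 in the comparison of framework groups with the rest, and none passed the adjusted threshold. Of all genes tested, 53.6%, 49.7% and 52.4% had lower means in these comparisons.

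The rest of the early response was read from a list of 23 other immediate early genes, of which 21 were tested. None was called in any comparison. All 21 had lower means with PS473@NKMOF-101-[Mn] than with PBS (median log2 fold change -0.65), as had 53.6% of all genes tested. All 21 also had lower means than with PS473@CPs (median -0.64), against 49.7% of all genes. In the framework groups 20 of 21 had lower means than in the others (median -0.31), against 52.4% of all genes. Rhob, an early-induced small GTPase, had 38.2 to 119 FPKM and a log2 fold change of -0.73 ± 0.33 against PBS. Ier3, a survival factor, had -0.54 ± 0.30 and the circadian repressor Bhlhe40 -0.13 ± 0.14. For 14 of the 21 the highest tumor was again PS473@CPs tumor 2, against 7.58% of all genes tested.

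Relatives of the members were read from the same comparison with PBS. Of 9 other AP-1 genes tested, 5 had lower means than in PBS (median -0.13, range -0.50 to 0.32), against 53.6% of all genes. Jund, the constitutive JUN protein, had -0.35 ± 0.22, Mafg, a small MAF partner, -0.13 ± 0.15 and Jdp2, a repressor of AP-1, 0.32 ± 0.16. Among 7 other EGR, NR4A and KLF genes the median was -0.38 and the range -1.64 to 0.09, with Klf6 at -0.40 ± 0.28, Nr4a3, a relative of Nr4a1, at -0.01 ± 0.28 and Nab2, a corepressor of EGR1, at 0.09 ± 0.12. Of 7 other dual-specificity phosphatases the median was -0.04 and the range -0.88 to 0.16, and Dusp6, Dusp4 and Dusp7 had -0.04 ± 0.15, 0.10 ± 0.22 and -0.28 ± 0.31. Genes of these families lay on both sides of 0, and none was called.

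Genes upstream of the response and genes of parallel stress programs were set against PBS in the same way, and none was called. The 17 genes of serum response factor, CREB and MAPK signalling tested had a median of 0.02 and lay between -0.22 and 0.25, with Map2k1, which codes for MEK1, at 0.00 ± 0.10 and Mapk3 (ERK1) at 0.06 ± 0.11. The 11 genes of lasting ERK output had a median of -0.04 and lay between -0.32 and 0.16, with Phlda1 at -0.14 ± 0.11, beside Dusp6 and Dusp4 above. For 10 heat shock genes the median was -0.06, with the 3 most abundant, the chaperones Hspa8, Hsp90aa1 and Hspe1, at 0.15 ± 0.14, 0.07 ± 0.15 and -0.20 ± 0.25. Another 3 of that list, stress-inducible chaperone genes chosen after their values were seen, had log2 differences below -1: Hspb1 by -1.94 ± 1.29, Hspa1b by -1.37 ± 0.48 and Hspa1a by -1.10 ± 0.58 (adjusted p = 0.993 for each, limma with Benjamini-Hochberg adjustment). Hspa1b read 6.00, 15.0 and 13.0 FPKM with PBS and 3.89, 3.45 and 3.21 FPKM with PS473@NKMOF-101-[Mn], which do not overlap. Of all genes tested, 1.92% were likewise below all PBS tumors in that group. Hspb1 read 2.16, 48.0 and 29.6 FPKM with PBS and 1.26, 9.91 and 2.36 FPKM with PS473@NKMOF-101-[Mn], which overlap. Hspa1a and Hspa1b are near-identical copies, so the split of fragments between them is uncertain. For 9 genes of the integrated stress response the median was -0.08, with Atf4, its central factor, at -0.08 ± 0.14, asparagine synthetase Asns at 0.07 ± 0.17 and Trib3 at 0.00 ± 0.26, while Cebpb, chosen after its value was seen, had -0.68 ± 0.56. The largest of these list medians in size was thus that of the other immediate early genes.

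Among 12347 genes outside the set, those most like its mean log2(FPKM + 1) over the 18 tumors were Zfp36 (r = 0.93), which codes for the messenger RNA decay factor tristetraprolin, Tcim (r = 0.89), the kinase Plk2 (r = 0.88), the ribonuclease gene Zc3h12a (r = 0.88), the cytokine signal inhibitor Socs3 (r = 0.88), Sh2d5 (r = 0.88), the stress gene Gadd45g (r = 0.87), Gm57853 (r = 0.87), Crabp1 (r = 0.87) and Rps6kb2 (r = 0.87). Spearman's rho was 0.68 for Crabp1 to 0.87 for Zfp36. The median r over all those genes was -0.06, and 85 genes had an r of at least 0.8. Zfp36 was at 18.5, 51.8 and 51.2 FPKM with PBS, at 24.0, 113 and 26.3 FPKM with PS473@CPs and at 14.9, 20.6 and 15.0 FPKM with PS473@NKMOF-101-[Mn]. PS473@CPs tumor 2 was the highest here as well, and the PS473@NKMOF-101-[Mn] tumors overlapped those of PBS.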

How the data were processed

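RNA-seq of 18 tumors, 3 in each of 6 groups assigned from the sample titles, was used. The authors enriched poly(A) RNA and deposited FPKM values, which are scaled by gene length and by each tumor's fragments that fell in genes. The aligner, counting tool and annotation are not given in the sources used here; the submitters' processing notes name GRCm39. Strand use in counting is likewise not given, so antisense transcripts cannot be told apart.

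Fragment numbers were recovered from the steps between low values; 49.0% to 53.1% of low values were whole numbers of fragments (tolerance 0.02) and 98.2% to 99.2% multiples of 0.25, so no count model was used for the main tests. Values were taken as log2(FPKM + 1), a scale that understates fold changes of low genes such as Egr2, and limma 3.58.1 (R 4.3.3) was fitted to the 12357 of 41079 genes whose mean reached 1 FPKM, 1 mean per group over all tumors, with a trend in the prior variance and Benjamini-Hochberg adjustment over all genes of a comparison. The procedure was tested on simulated data. Correlations used Python 3.11.15 with numpy 2.4.6, pandas 2.3.3 and scipy 1.17.1, with 100000 resamples for the permutation tests. Lists of pathway and marker genes were written from gene names. The members and lists were chosen with earlier results of these data known. Lor, 1 of 20 keratinocyte markers, was not matched by name.

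Genes named besides the members are the 3 most abundant of each pathway list, any called, the 10 most like the members' mean, and markers. Hspb1, Hspa1b, Hspa1a and Cebpb were named as well, after their values were seen. Relations to the score have raw permutation p values, and a limma slope fit adjusted over all genes, added after seeing the data, stands in for adjustment over the 10 members. Alternatives were no filter, a filter at 0.1 FPKM, 0.1 as pseudocount, upper-quartile scaling, quantile normalization, groups fitted alone, no trend, array weights, a replicate block, voom on recovered fragments, the keratinocyte score as covariate, an unadjusted p and leaving out each tumor. Nothing says whether tumors of 1 group came from separate cages or batches, and no 2 tumors had identical values. P values measure the spread between these tumors only.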

Additional observations from a re-analysis of the deposited data

How the results depend on the processing

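The count of called members stayed at 0 in all comparisons with another pseudocount, filter, scaling or prior, with groups fitted alone, with voom, with the keratinocyte score as covariate, and without any single tumor, and the median log2 fold change of the members kept its direction or moved by less than the spread between tumors in these, except for PS473@NKMOF-101-[Mn] against PS473@CPs (-0.42 without PS473@CPs tumor 2). Array weights did not converge and gave Free PS473 tumor 1 a weight of 17.1: 4 members were then called for Free PS473 against PBS (Dusp1 -2.17, Egr1 -2.42, Fos -1.32 and Junb -1.55 on the log2 scale; adjusted p of 0.0184 to 0.0409, against a range over all alternatives of 0.0184 to 1), 1 across the 6 groups (Dusp1, adjusted p = 0.0386), and the median against PS473@CPs was -0.65. With these weights, 335 of all 12357 genes tested were called for Free PS473 against PBS, beside 4 of the 10 members. Across the 6 groups 120 of all 12357 genes were called, beside 1 of the 10 members. Genes outside the set were thus called too, and whether members were called more often than other genes was not tested. Without weights, an unadjusted p under 0.05 gave 1 member for M5@NKMOF-101-[Mn] and 5 for PS473@NKMOF-101-[Mn] against PBS, 4 against PS473@CPs and 2 for the framework groups. The shares of all genes were 1.51%, 2.1%, 2.29% and 4.56% in the same order. Leaving out 1 tumor at a time gave called counts of 0 to 0, and medians of -1.10 to -0.85 for PS473@NKMOF-101-[Mn] against PBS, -1.46 to -0.42 against PS473@CPs, -0.36 to 0.02 against Free PS473, -0.58 to -0.19 against the empty framework, -0.35 to 0.10 against M5@NKMOF-101-[Mn], and, against PBS, -1.04 to -0.45 for Free PS473, -0.34 to 0.34 for PS473@CPs, -0.67 to -0.16 for the empty framework and -1.02 to -0.37 for M5@NKMOF-101-[Mn], with -0.65 to -0.25 for framework against none. Nr4a1 against Free PS473 was 0.0302 without PS473@NKMOF-101-[Mn] tumor 3, against -0.13 with it.

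The tumors share replicate numbers in their titles. With the number as a replicate block, 0 members were called and the median against PBS stayed at -1.02. Members with an unadjusted p under 0.05 were 4 against PBS and 5 against PS473@CPs. Of all 12357 genes tested, 224 and 271 had such a p in these comparisons. The correlation of same-numbered tumors' deviations was -0.73 to 0.724, with 18 of 45 over 0.1, and 4 of 18 tumors correlated best with their own number, so the numbers were not taken as pairs.

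For the keratinocyte score, leaving out the 2 farthest tumors gave r of -0.21 for Fos, -0.25 for Fosb, -0.14 for Jun, -0.27 for Ier2 and 0.42 for Atf3. Centring within groups gave -0.11 for Fosb. The 10 tumors above 0.5, a split not planned beforehand, gave 0.51 for Atf3 and 0.29 for Nr4a1. The within-group slope was -0.0437 for Fosb, 0.0744 for Egr2 and 0.125 for Atf3 on the log2 scale per unit. The cause of these shifts was not tested. The fewest fragments in a tumor were 211 for Egr1 and 269 for Egr2.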

Other observations

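Hspa1a, a stress-inducible chaperone gene chosen after its values were seen, was the heat shock gene most like the mean of the immediate early genes over the 18 tumors (r = 0.84). It stood at 15.0 FPKM in PS473@CPs tumor 2, against 0.825 to 6.82 FPKM in the other 17 tumors. With PS473@NKMOF-101-[Mn] it was at 1.73, 1.85 and 0.839 FPKM and with PBS at 1.70, 5.67 and 6.82 FPKM, which overlap. Hspa8, the constitutive chaperone of the same family, had r = -0.40 with that mean.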
